A study of Zea mays with 4 samples.

Results

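CPN60I, CPN60II, BIPE2 and DER2.2 are 4 maize (Zea mays) genes that help other proteins fold, or help to remove those that do not. They were taken by exact match of their symbols among the 22525 gene or locus IDs of the deposited count table. The match itself used no measured value, but the members were chosen with earlier results of these data known. CPN60I and CPN60II are copies of the mitochondrial chaperonin gene CPN60, BIPE2 encodes the endoplasmic reticulum (ER) chaperone BiP, and DER2.2 encodes a derlin. RNA came from whole V3 seedlings with their roots, raised in a greenhouse under 14 h of light and 10 h of dark. The inbred line B73 gave 2 libraries, and an F1 hybrid of A188 with B73, named HiII in the labels, gave the other 2. For both genotypes 1 library carries the code RPI10 and 1 the code RPI11. Whether these codes mark separate plants is not stated, so the p-values below measure only the spread between these libraries, which may be technical.

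Chaperonins are barrel-shaped complexes that enclose an unfolded protein and release it folded. The mitochondrial chaperonin is encoded in the nucleus, and with a small partner, the co-chaperonin, it folds proteins that have been imported into the organelle. BiP is the Hsp70-type chaperone of the ER lumen. It binds newly made secretory and membrane proteins and holds back those that have not folded. Derlins are membrane proteins of the ER named after yeast Der1, and they act in ER-associated degradation, which moves misfolded proteins out to the cytosol for destruction by the proteasome. In plants as in other eukaryotes, BiP is a classical target of the unfolded protein response, the signalling that follows when misfolded proteins build up in the ER.

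Library totals were 275271 and 403858 counts in B73 and 1341976 and 883812 in the hybrid, so the hybrid was the more deeply sequenced genotype. Levels are given as CPM (counts per 1000000 counts of the library), with each library total multiplied by a TMM factor (trimmed mean of M-values, a scaling that centres the bulk of the IDs) unless stated otherwise. On that scale 1 count was worth 2.78 and 1.96 CPM in B73 (RPI10 and RPI11) and 0.979 and 1.42 CPM in the hybrid. A count of 0 allows up to 3 counts, which is 8.35 and 5.87 CPM in B73, against 2.94 and 4.27 CPM in the hybrid. Intervals on counts are exact 95% Poisson intervals, and they and this limit cover counting error only. The summed level of 5 genes matched by symbol to a green-tissue list (CAB1, FDX2, PPDK2, psbA and RBCS) was 2440 and 2040 CPM of the library total in B73 and 3870 and 3010 CPM in the hybrid. That of PIP2-5, TIP2-1 and TIP2-2, aquaporin genes listed for root but not particular to it, was 98.1 and 57.0 CPM in B73, against 86.4 and 41.9 CPM in the hybrid. Both sums are relative to library totals and were not computed on the TMM scale, on which the members are read. TMM scaling raises hybrid levels against B73, so it widens the green-tissue difference, and the order of the root sums holds for library totals only. On the TMM scale TIP2-1 alone was at 66.8 and 39.1 CPM in B73, against 93.9 and 39.9 CPM in the hybrid. The part of tissue makeup in the results was not tested, and in whole seedlings fewer cells that express a gene and less RNA per cell cannot be told apart. The genome build named for processing was that of B73. How fully reads of A188 alleles were counted in the hybrid was not tested.

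Differences between the genotypes were common over the whole table, and each member is to be read against that. Of 3282 IDs tested, 1662 (50.6%) differed between the genotypes at an adjusted p under 0.05 by edgeR, with 25.4% lower and 25.3% higher in the hybrid. On the TMM scale both hybrid libraries lay below both B73 libraries for 40.2% of the tested IDs, and above them for 36.1%. Of the 4 members, 3 were called lower and lay below B73 in both hybrid libraries. DER2.2 was not called and lay above B73 in both hybrid libraries on this scale.

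Both mitochondrial chaperonin copies were counted in each B73 library and were near the detection limit in the hybrid, in spite of the deeper hybrid libraries. CPN60I had 9 counts (RPI10) and 7 counts (RPI11) in B73, against 0 and 2 counts in the hybrid. These counts correspond to 25.0 and 13.7 CPM in B73, against 0 and 2.85 CPM in the hybrid. Both hybrid libraries lay below both B73 libraries, and neither hybrid count exceeded the limit of 3. At the pooled B73 level, the hybrid libraries would have held 18.8 and 12.9 counts of CPN60I on the TMM scale. The gene fell by 3.78 on the log2 scale in the hybrid (95% interval -5.45 to -2.11, SE 0.769, edgeR quasi-likelihood adjusted p = 0.00178). Its mean went from 19.4 ± 8.03 to 1.42 ± 2.01 CPM (SD, n = 2 libraries each). The ratio of pooled counts, 2 against 16, gave a hybrid level of 0.0631 times that of B73, with an exact counting interval of 0.00704 to 0.268. Within RPI10, where the hybrid count was 0, the B73 level was 8.53 times the level of 3 hybrid counts. That figure takes the B73 count as exact and is not a lower bound. The interval of the B73 level was 11.5 to 47.6 CPM, and that of the hybrid level reached 3.61 CPM. Without the RPI10 hybrid library the fitted difference was -2.47 and no longer passed the test (edgeR adjusted p = 0.177).

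CPN60II, the other copy, had 8 counts in each B73 library, against 1 and 4 counts in the hybrid. Its levels were 22.3 and 15.6 CPM in B73, against 0.979 and 5.69 CPM in the hybrid, so the genotypes did not overlap. With 4 counts, the RPI11 hybrid library was the only hybrid library above the limit for either copy. CPN60II fell by 2.59 on the log2 scale (95% interval -3.93 to -1.24, SE 0.620, edgeR adjusted p = 0.00443), from 19.0 ± 4.68 to 3.34 ± 3.33 CPM (SD, n = 2 libraries each). At the pooled B73 level, 18.8 and 12.9 counts would have been found in the hybrid libraries. The ratio of pooled counts, 5 against 16, was 0.158 (exact counting interval 0.0452 to 0.451). Leaving out the RPI10 hybrid library gave -1.51 (edgeR adjusted p = 0.317), and leaving out the RPI11 hybrid library gave -3.83 (edgeR adjusted p = 0.0745), so neither hybrid library alone kept the call. With DESeq2 the difference was -2.33 (adjusted p = 0.270).

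**Figure D1:**
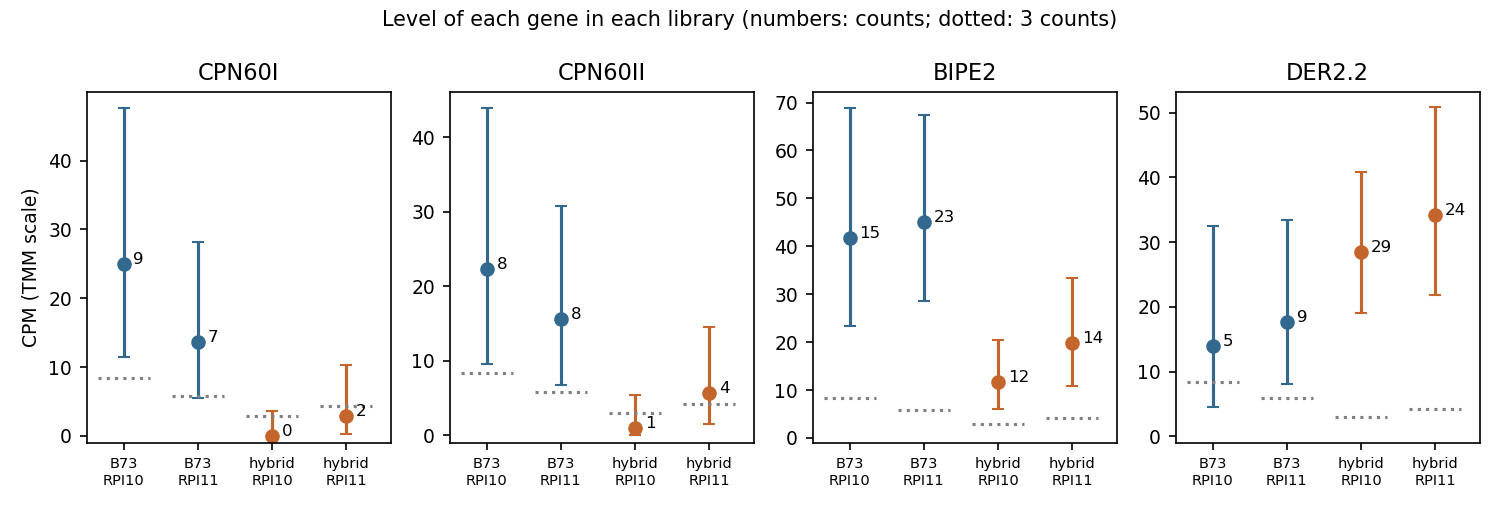
Level of each gene in each library, in CPM on the TMM scale (y axis), with exact 95% Poisson intervals as bars, the count beside each point and the level of 3 counts as a dotted line. CPN60I, CPN60II and BIPE2 lie lower in both hybrid libraries than in both B73 libraries, with hybrid counts of 0 and 2, 1 and 4, and 12 and 14, whereas DER2.2 has 29 and 24 counts in the hybrid.

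Reads of similar gene copies can be split between them or lost in counting, and the labels do not say how such reads were treated. The sum of the copies does not depend on how reads were split, though reads left out as ambiguous would be missing from it too. Summed, the CPN60 copies had 17 and 15 counts in B73 and 1 and 6 counts in the hybrid, which is 47.3 and 29.3 CPM against 0.979 and 8.54 CPM. Refitted with the sum in place of the copies, the level fell by 3.11 on the log2 scale (95% interval -4.57 to -1.65, SE 0.673, edgeR adjusted p = 0.00249). The sum passed the test without each library in turn, with differences from -4.82 (without the RPI11 hybrid library) to -1.94 (without the RPI10 hybrid library). It had an adjusted p of 0.0575 with DESeq2 (difference -2.85). CPN60I made up 52.9% and 46.7% of the CPN60 counts in the B73 libraries (9 of 17 and 7 of 15). In the hybrid it made up 0 of 1 and 2 of 6 counts. The pooled shares were 50.0% in B73 (exact Clopper-Pearson interval 31.9 to 68.1) and 28.6% in the hybrid (3.67 to 71.0), so no difference in the balance of the copies was detectable at this depth.

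BIPE2, which RefSeq also lists as b-70 and bip1, was counted in each of the 4 libraries well above the limit. It had 15 and 23 counts in B73 and 12 and 14 counts in the hybrid. On the TMM scale these were 41.7 and 45.0 CPM in B73, against 11.7 and 19.9 CPM in the hybrid. The B73 libraries were close to each other, and both lay above both hybrid libraries. Had the hybrid libraries held the pooled B73 level, 44.6 and 30.7 counts would have been found. BIPE2 fell by 1.49 on the log2 scale (95% interval -2.47 to -0.50, SE 0.455, edgeR adjusted p = 0.0165), a 2.80-fold difference, from 43.4 ± 2.29 to 15.8 ± 5.79 CPM (SD, n = 2 libraries each). The ratio of hybrid to B73 was 0.281 within RPI10 and 0.443 within RPI11.

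The call for BIPE2 was less stable than its direction, which was lower in the hybrid in every setting run. It was lost without the filter on low counts (difference -1.18, edgeR adjusted p = 0.156) and with DESeq2 (-1.24, adjusted p = 0.359). It was also lost without either B73 library (-1.53 without RPI10, edgeR adjusted p = 0.0592, and -1.48 without RPI11, adjusted p = 0.115) and without the RPI10 hybrid library (-0.96, adjusted p = 0.135). It held with library totals in place of TMM (-2.20, edgeR adjusted p = 0.00102) and without the RPI11 hybrid library (-1.69, adjusted p = 0.00588).

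DER2.2, which RefSeq also lists as der4 and derlin4, had 5 and 9 counts in B73 and 29 and 24 counts in the hybrid. On the TMM scale these were 13.9 and 17.6 CPM in B73, against 28.4 and 34.2 CPM in the hybrid, and both hybrid libraries lay above both B73 libraries. Relative to library totals the levels were 18.2 and 22.3 CPM in B73, against 21.6 and 27.2 CPM in the hybrid, and the genotypes overlapped. The fitted difference of 0.95 on the log2 scale did not pass the test (95% interval -0.07 to 1.96, SE 0.469, edgeR adjusted p = 0.110). The interval reaches from near no difference to a hybrid level 3.90 times that of B73. With library totals the difference was 0.23 (95% interval -0.81 to 1.28, edgeR adjusted p = 0.707). The ratio of hybrid to B73 on the TMM scale was 2.04 within RPI10 and 1.94 within RPI11. DER2.2 was called in none of the settings that tested it.

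DER2.2 was the only derlin with enough counts to be tested. The table holds 3 others: DER1.1, DER1.2 and DER2.1. DER1.1 had 4 and 2 counts in B73 and 7 and 2 in the hybrid. DER2.1 had 1 and 6 counts in B73 and 4 and 2 in the hybrid. DER1.2 had 0 in both B73 libraries and 0 and 1 in the hybrid. The levels of each overlapped between genotypes on the TMM scale, and none passed the filter. Over all derlins the counts were 10 and 17 in B73 and 40 and 29 in the hybrid. Their sum differed by 0.38 on the log2 scale (95% interval -0.53 to 1.29, edgeR adjusted p = 0.469), and its sign turned with library totals (-0.34, edgeR adjusted p = 0.526).

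The share of DER2.2 in the derlin counts does not depend on the scaling of libraries. It was 50.0% (5 of 10) and 52.9% (9 of 17) in B73, and 72.5% (29 of 40) and 82.8% (24 of 29) in the hybrid. Both hybrid shares lay above both B73 shares, and the means differed by 26.2 percentage points. The exact Clopper-Pearson intervals of the shares were wide, from 18.7 to 81.3 in the shallowest library and from 56.1 to 85.4 in the deepest, and they overlapped. In a single random draw of all libraries to 275271 counts, the means differed by 14.0 points. With 2 libraries in each genotype no exact permutation test can go below p = 0.333, so the difference in shares was not tested further.

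**Figure D2:**
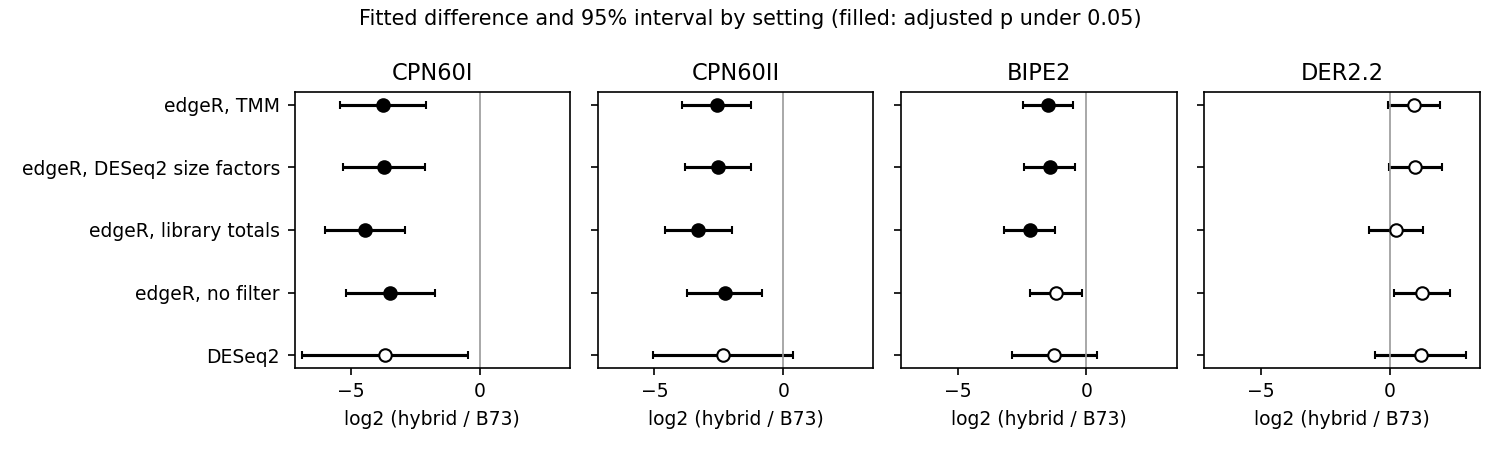
Fitted log2 ratio of hybrid to B73 (x axis) with its 95% interval for each gene under 5 settings (y axis); filled points have an adjusted p under 0.05. CPN60I is filled in each edgeR setting and has no adjusted p with DESeq2, BIPE2 is open without the filter and with DESeq2, and DER2.2 is open throughout.

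The choice of scaling moved all members together. Library totals in place of TMM lowered the log2 fold changes of the tested IDs by a median of 0.72 (a shift of -0.717). The TMM factors were 1.31 and 1.27 in B73 and 0.762 and 0.795 in the hybrid. The CPN60I difference was then -4.47 (edgeR adjusted p = 0.000120) and the CPN60II difference -3.29 (edgeR adjusted p = 0.000360). DESeq2 size factors within edgeR moved the fold changes by a median of 0.05 and changed no call of a member. In a single random draw of all libraries to the smallest total, CPN60I had 9 and 5 counts in B73 and 0 and 1 in the hybrid. CPN60II then had 8 and 3 counts against 0 and 2. BIPE2 had 15 and 18 counts against 2 and 2, and DER2.2 had 5 and 7 against 8 and 9. At that depth BIPE2 alone of the members passed the filter, and it was lower in the hybrid by 2.83 on the log2 scale (a difference of -2.83, edgeR adjusted p = 0.00550). Neither of its hybrid counts in that draw exceeded the limit of 3, and other draws were not made.

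Ratios between members within a library are free of the scaling. They were compared between genotypes as log2 ratios of counts with 1 count added to each, so at low counts they still depend on depth. The ratio of BIPE2 to DER2.2, the ER chaperone to the derlin, was 1.42 and 1.26 in B73 and -1.21 and -0.74 in the hybrid, on the log2 scale. BIPE2 thus had more counts than DER2.2 in both B73 libraries and fewer in both hybrid libraries, a mean difference of -2.31. The ratio of CPN60I to DER2.2 was 0.74 and -0.32 in B73 and -4.91 and -3.06 in the hybrid. That of CPN60II to DER2.2 was 0.59 and -0.15 in B73 and -3.91 and -2.32 in the hybrid. The sizes of these differences were not stable. In the single draw to equal totals, CPN60I to DER2.2 went from -4.19 to -2.91, CPN60II to DER2.2 from -3.33 to -2.25 and BIPE2 to DER2.2 from -2.31 to -2.99. With 5 counts added they were -2.54, -2.23 and -1.8, in the same order. Ratios of the CPN60 copies to BIPE2 differed by -1.88 for CPN60I and by -1.02 for CPN60II. Both of those turned sign in the single draw of the libraries to equal totals (0.09 and 0.75). The counts thus do not settle whether the CPN60 copies were lowered more than BIPE2. The genotypes did not overlap in any of the 6 pairs, but these pairs reuse the same 4 genes. The share of all ID pairs without overlap was not computed. Of single tested IDs, 40.2% lay below and 36.1% above B73 without overlap on the TMM scale. The difference for CPN60I to CPN60II was -0.86, and went from -1.21 with 0.5 counts added to -0.31 with 5. Each pair had an exact two-sided permutation p of 0.333 (0.333 after Benjamini-Hochberg adjustment over the 6 pairs), the smallest that 2 libraries against 2 allow.

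**Figure D3:**
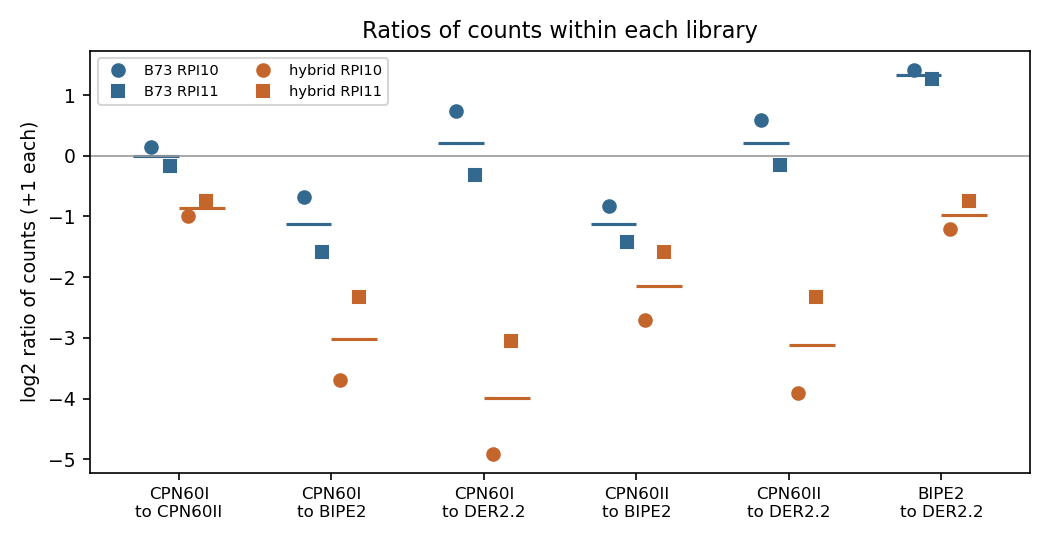
Log2 ratio of counts within each library, with 1 count added to each gene (y axis), for the 6 pairs of genes (x axis); circles are RPI10, squares RPI11, and short lines the genotype means. BIPE2 to DER2.2 is above 0 in both B73 libraries (1.42 and 1.26) and below 0 in both hybrid libraries (-1.21 and -0.74).

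The median log2 fold change of the 4 members was -2.04, against -0.04 for all tested IDs. All 4 members passed the filter, but CPN60I and CPN60II did so through the B73 libraries alone. The filter asks for 15.5 CPM of the library total in 2 libraries, which CPN60I, CPN60II and BIPE2 did not reach in both hybrid libraries. BIPE2 reached it in both B73 libraries and, at 15.8 CPM, in the RPI11 hybrid library. Entry that needs the B73 libraries favours genes that are lower in the hybrid, so neither the count of called members nor the median is support for a shared fall. Without the filter, over 22374 IDs, CPN60I (edgeR adjusted p = 0.00178) and CPN60II (edgeR adjusted p = 0.0292) were still called. BIPE2 was not (edgeR adjusted p = 0.156). That fit called 2168 of the 22374 IDs, 815 of them lower in the hybrid.

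Against a 2-fold difference in place of no difference, 15.7% of the tested IDs were lower in the hybrid (glmTreat in edgeR, adjusted p under 0.05). CPN60I (adjusted p = 0.00645) and CPN60II (adjusted p = 0.0190) were among them. BIPE2 was not (adjusted p = 0.132), and its interval holds differences smaller than 2-fold. This test used the filtered IDs, which CPN60I and CPN60II entered through the B73 libraries alone. BIPE2 would not have entered on the hybrid libraries alone. The test against 2-fold was not run without the filter.

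**Figure D4:**
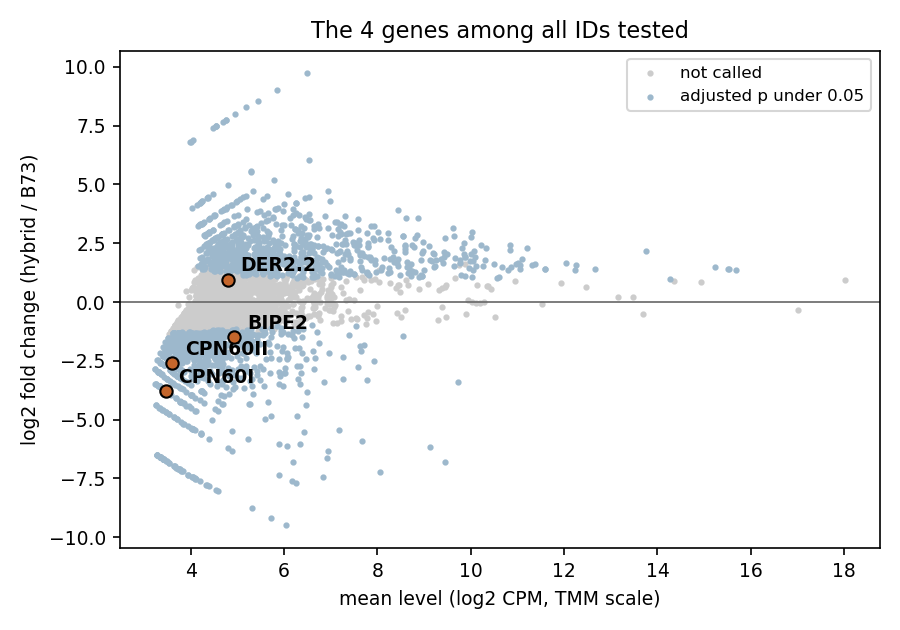
Log2 fold change of hybrid over B73 (y axis) against mean level in log2 CPM (x axis) for the 3282 IDs tested, with the 4 genes marked. CPN60I (-3.78) and CPN60II (-2.59) lie at the low end of the levels tested, and DER2.2 (0.95) lies among the IDs that were not called.

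No member was called between the library codes. With genotype as a term, edgeR called 107 of 3282 IDs (3.26%) between RPI11 and RPI10. The smallest adjusted p of a member was 0.752, for BIPE2, whose difference was 0.39 on the log2 scale (95% interval -0.46 to 1.24). The intervals of the CPN60 copies were wider, -2.01 to 1.24 for CPN60I and -1.32 to 1.63 for CPN60II. For DER2.2 the interval was -0.56 to 1.13.

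Among the 90 IDs with gene symbols that were tested, likeness to each member was measured as the Euclidean distance of centred log2(CPM + 1) values over the 4 libraries. CPN60II was nearest to CPN60I, at a distance of 0.925, followed by GAPC3, a cytosolic glyceraldehyde-3-phosphate dehydrogenase, at 1.14. GAPC3 was also nearest to CPN60II, at 0.764, but with 5 CPM added in place of 1 the nearest to CPN60II were ACK2, at 0.351, and then SGS3. GAPC3 had 31 and 38 counts in B73 and 9 and 11 in the hybrid. The nearest to BIPE2 were SGS3, a gene of the small RNA silencing pathway, at 0.263, and RPL17, which encodes a ribosomal protein, at 0.361. SGS3 had 14 and 18 counts in B73 and 9 and 13 in the hybrid. The nearest to DER2.2 were GRF1, at 0.0603, and PIP2-1, a plasma membrane aquaporin, at 0.154. GRF1 had 8 and 14 counts in B73 and 47 and 39 in the hybrid. Over 4 libraries that fall into 2 genotypes, such a distance describes little more than the size of the genotype difference.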

How the data were processed

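For 4 CEL-Seq2-type libraries the authors deposited raw counts, as whole numbers for each gene or locus ID. Per the submitters' processing notes, CASAVA 1.4, HISAT2, UMI-tools and the build B73 RefGen_v4 were used, with no role or order given. The annotation, the counting of multiply mapped reads and the collapsing of molecular identifiers are not given in the sources used here. Of 22525 IDs, 151 had no count. The quasi-likelihood test of edgeR 4.0.16 (R 4.3.3) compared the genotypes over all 4 libraries with no covariate, TMM scaling, filterByExpr (minimum count 10, 3282 IDs kept) and Benjamini-Hochberg adjustment over all IDs tested (threshold 0.05). Standard errors were derived from the size of the log2 fold change and its F statistic. Libraries of a genotype differed by more than counting noise (chi-square over degrees of freedom 5.43 in B73 and 11.5 in the hybrid) and were kept as separate samples. On simulated data with 200 IDs changed by a log2 fold of 2, edgeR recovered 124 of the 178 tested, with 3 false calls among 3186 IDs. The simulation gave every ID a dispersion of 0.07 and raised as many IDs as it lowered. In the data 1662 IDs were called, so the false calls of the simulation may not carry over to these libraries.

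Alternatives were other scalings, other filters, a single random draw of counts to the smallest total, DESeq2 1.42.0 and a threshold of 0.01. The RPI code as a block and leaving out each library were also run. The test against 2-fold, the sums over CPN60 copies and derlins, and the derlin share were added after seeing the data. The members and lists were chosen with earlier results of these data known. The genes named are the members, the IDs whose symbols match a protein-folding and quality-control list, and for each member the 2 tested symbols most like it. Only members and derlins matched that list, which also held co-chaperonins, heat shock proteins, protein disulfide isomerases, calreticulins, ubiquitin and proteasome symbols. All 7 matched IDs were found by synonym in the RefSeq gene table of Zm-B73-REFERENCE-NAM-5.0, used for names only, since its build differs.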

Additional observations from a re-analysis of the deposited data

How the results depend on the processing

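The direction of each member was kept in every setting that gave it a value. CPN60I ran from -6.49 to -2.47 (log2) over the fits without a hybrid library. DESeq2 gave it -3.67 (unadjusted p = 0.0254) but no adjusted p. CPN60II was not called with DESeq2 (-2.33) and ran from -3.83 to -1.51 without a hybrid library. BIPE2 was not called without a filter (-1.18), with DESeq2 (-1.24) or against 2-fold (-1.49), and ran from -1.69 to -0.96 over the fits that leave out a library. The CPN60 sum was not called with DESeq2 (-2.85). The sum of derlins turned to -0.34 with library totals. The derlin share difference fell to 14.0 points at equal totals. The cause of these losses was not tested. A genotype left with 1 library was assumed to vary like the other. Without a B73 library, at equal totals and with 10 counts in every library, the CPN60 copies failed the filter and gave no value, nor did the copies' share at equal totals, where 1 hybrid library held neither. DER2.2 gave none at equal totals, with 10 counts in every library or without the RPI11 hybrid library.

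Calls over all IDs, 1662 as reported, were 401 of 970 with 10 counts in every library, 715 at equal totals, 756 with DESeq2, 1019 against 2-fold, 1104 at a threshold of 0.01 and 842 to 1318 without a library. Library totals gave 482 higher and 1357 lower, against 829 and 833; DESeq2 gave 551 and 205, and no filter 1353 and 815. Between codes, the 107 calls became 69 at equal totals and 0 with genotype left out of the edgeR model (9 IDs with an unadjusted p under 0.05).

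A fit with RPI codes as the replicate block called 1870 IDs; CPN60I was -3.85, CPN60II -2.56, BIPE2 -1.46 and DER2.2 0.98 (adjusted p = 0.0662), and no member's call changed. Same-coded libraries had correlated deviations (0.248 across IDs), but 2 codes are too few to settle a pairing. Of 42 values of ratios between members under other settings, 31 moved by less than 1 SD and 2 changed sign. Of the 8 nearest IDs named, 8 were kept with library totals, 7 with 0.1 CPM added and 6 with 5 CPM added.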
